A study of Mus musculus with 24 samples.

Results

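RNA of 10 factors of the premetastatic niche was followed in mouse liver: the adhesion receptor genes Vcam1 and Icam1, the chemokine genes Cxcl12 and Ccl2, the cytokine gene Mif, the S100 genes S100a8 and S100a9, the fibronectin gene Fn1, the protease gene Mmp9 and the protease inhibitor gene Timp1. They were taken by symbol, as adhesion, chemokine and myeloid recruitment factors outside serum amyloid A and lipocalin 2, and all 10 were found among the 23240 rows of the deposited count table. Of these, 8 passed the filter on low counts and were tested among 13773 genes. Timp1 and Mmp9 did not pass it and are given by their counts.

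A premetastatic niche is tissue altered at a distance by a tumor before its cells arrive, in part through vesicles and secreted proteins. Endothelial and macrophage adhesion receptors, chemokines and the S100 proteins hold or attract myeloid cells there, fibronectin gives incoming cells a substrate, and proteases with their inhibitors remodel the matrix. In liver, vesicle uptake by Kupffer cells, the resident macrophages of the sinusoids, has been linked to this process.

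The 24 libraries were of liver from female NSG mice, 8 weeks old per the labels. NSG (NOD scid gamma) is an immunodeficient strain without functional lymphocytes or natural killer cells. Over 5 weeks the mice had 2 tail vein injections per week, of saline (PBS) or of about 10 ug of extracellular vesicles (EVs). Liver was removed 2 days after the final injection. The 4 groups of 6 libraries were PBS, EVs of MCF10A (a non-tumorigenic human breast epithelial line), EVs labelled MCF10A/miR-122, and EVs labelled MDA-MB-231 (a human breast cancer line). Liver mRNA was sequenced from a stranded library kit. The hepatocyte gene Alb was at a mean of 88979 CPM (read counts scaled to the library total).

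The identity of 12 libraries is contradictory. The library names of the group labelled MCF10A/miR-122 point to MDA-MB-231, and those of the group labelled MDA-MB-231 point to miR-122. Groups are called here by their label, with the word labelled, and if the library names are right their values change places. The 12 PBS and MCF10A EV libraries also form a set apart from the other 12. Their totals were 21.3 to 29.3 M (mega) counts against 26.8 to 33.7 M, and Serpina3a, a protease inhibitor gene, was at 109.6 to 325 CPM against 0.285 to 5.85 CPM. Set and treatment therefore cannot be told apart in comparisons between the sets. Within a set lie 2 comparisons, MCF10A EV against PBS and the group labelled MDA-MB-231 against that labelled MCF10A/miR-122.

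Upstream sequences of S100a8, S100a9 and Cxcl12 are shown because the first pair varied together and the last passed the test in 3 comparisons. RefSeq's table held 6 of the 10 genes. The windows are the 250 bases before the annotated start in GRCm38.p6, not the build of the counts, and capitals mark a match to 1 of 4 motifs searched on both strands. S100a8 lies at chr3:90668821-90669070 (plus strand), S100a9 next to it at chr3:90695722-90695971 (minus strand), and Cxcl12 at chr6:117168285-117168534 (plus strand).

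S100a8: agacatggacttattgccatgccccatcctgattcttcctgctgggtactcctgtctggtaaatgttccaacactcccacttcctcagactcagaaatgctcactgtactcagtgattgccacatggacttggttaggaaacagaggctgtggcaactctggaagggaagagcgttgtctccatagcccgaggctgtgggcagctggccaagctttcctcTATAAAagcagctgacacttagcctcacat
S100a9: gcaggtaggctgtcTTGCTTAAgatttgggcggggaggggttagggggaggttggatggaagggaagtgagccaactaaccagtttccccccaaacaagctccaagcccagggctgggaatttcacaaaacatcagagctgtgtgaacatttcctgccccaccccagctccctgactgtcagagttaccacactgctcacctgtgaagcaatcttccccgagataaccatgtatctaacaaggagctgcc
Cxcl12: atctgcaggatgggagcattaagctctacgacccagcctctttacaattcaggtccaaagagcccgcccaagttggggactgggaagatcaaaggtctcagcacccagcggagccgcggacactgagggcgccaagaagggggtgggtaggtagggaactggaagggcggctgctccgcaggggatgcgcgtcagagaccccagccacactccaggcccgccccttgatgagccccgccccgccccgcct

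S100a8 held TATAAA, the core promoter box bound by the TATA-binding protein, whose first base is 30 bases before the start. S100a9 held TTGCNNAA, a form bound by C/EBP factors of myeloid cells, with its first base 236 bases before the start. Cxcl12 held none of the 4 motifs, and its window had 64.4% G and C against a median of 52.4% over all 32851 windows. Windows with a match made up 12.4% of all for TATAAA, 9.56% for TTGCNNAA, 17.6% for a kappaB form (GGGA, then any 4 bases, then CC) and 6.75% for TGANTCA (an AP-1 form). The last 2 motifs, as written, were in none of the 6 windows, and other forms of these sites were not searched. These are matches of letters, and no binding was measured.

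Per kb of the longest coding transcript, the members spanned more than 3 orders of magnitude. Fn1 was highest at a mean of 171 CPM per kb over the 24 libraries, then Mif at 115 and Cxcl12 at 59.9. Vcam1 (5.18 CPM per kb) and Icam1 (5.15 CPM per kb) did not differ in mean level beyond their spread, and the libraries of Vcam1 ran from 7.95 to 53.1 CPM. S100a9, S100a8 and Ccl2 followed at 1.20, 0.734 and 0.619 CPM per kb, with library spreads that overlap. Timp1 and Mmp9 were at 0.0901 and 0.0462 CPM per kb. Mif is uncertain throughout, since 86.9% of its 32-mers are shared with 8 other annotated genes. Icam1 shares 19.2% with an antisense gene, and without a stated strand setting those reads cannot be told apart.

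**Figure D1:**
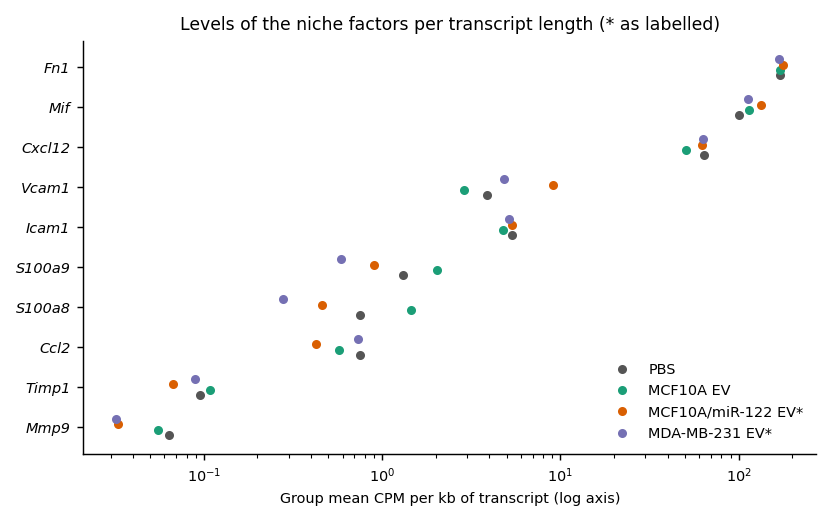
Mean level of each factor in the 4 groups, as CPM per kb of transcript on a log axis (horizontal), with 1 row per gene and 1 point per group of 6 libraries. Fn1, Mif and Cxcl12 lie far above the other 7 genes, and the points of Vcam1 are spread more widely than those of Icam1 at a like level.

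Vcam1, an adhesion receptor for integrin alpha4 beta1 on leukocytes, had the largest rise among the members that passed the test. In the livers given EVs labelled MCF10A/miR-122 it was at 41.3, 23.4, 53.1, 14.2, 20.7 and 37.7 CPM (31.7 ± 14.7, mean ± SD, n = 6). With PBS it was at 14.6, 8.38, 23.0, 12.9, 12.2 and 9.67 CPM (13.4 ± 5.18). Every one of these 6 EV libraries was above the PBS median and 4 were above all PBS libraries. With MCF10A EVs it was at 11.7, 9.30, 11.3, 7.95, 9.69 and 10.2 CPM (10.0 ± 1.38), and with EVs labelled MDA-MB-231 at 22.03, 12.5, 10.96, 17.0, 12.8 and 25.2 CPM (16.7 ± 5.79).

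The log2 fold change of Vcam1 in the group labelled MCF10A/miR-122 was 1.24 (SE 0.27, adjusted p = 0.00281) against PBS and 1.66 (SE 0.28, adjusted p = 2.09e-04) against MCF10A EV. Against MCF10A EV the groups did not overlap, which was so for 5.63% of all tested genes. Both calls held without any single library, with values of 1.03 to 1.46 against PBS and 1.46 to 1.82 against MCF10A EV. These comparisons share the EV libraries and cross the sets. Within the set, the group labelled MDA-MB-231 against that labelled MCF10A/miR-122 had a log2 fold change of -0.92 (SE 0.27, unadjusted p = 0.00207), which missed the threshold (adjusted p = 0.2). Without replicate 4 of the latter, its lowest library, the value was -1.08 (adjusted p = 0.0456). No other omission of a single library gave a call, and without replicate 3 of that group, its highest library, the value was -0.72 (adjusted p = 0.488). If the library names are right, the higher livers are those given MDA-MB-231 EVs. Vcam1 did not pass in the other comparisons: -0.42 for MCF10A EV against PBS (adjusted p = 0.443), 0.32 for MDA-MB-231 EV, as labelled, against PBS (adjusted p = 0.484) and 0.74 against MCF10A EV (adjusted p = 0.104).

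**Figure D2:**
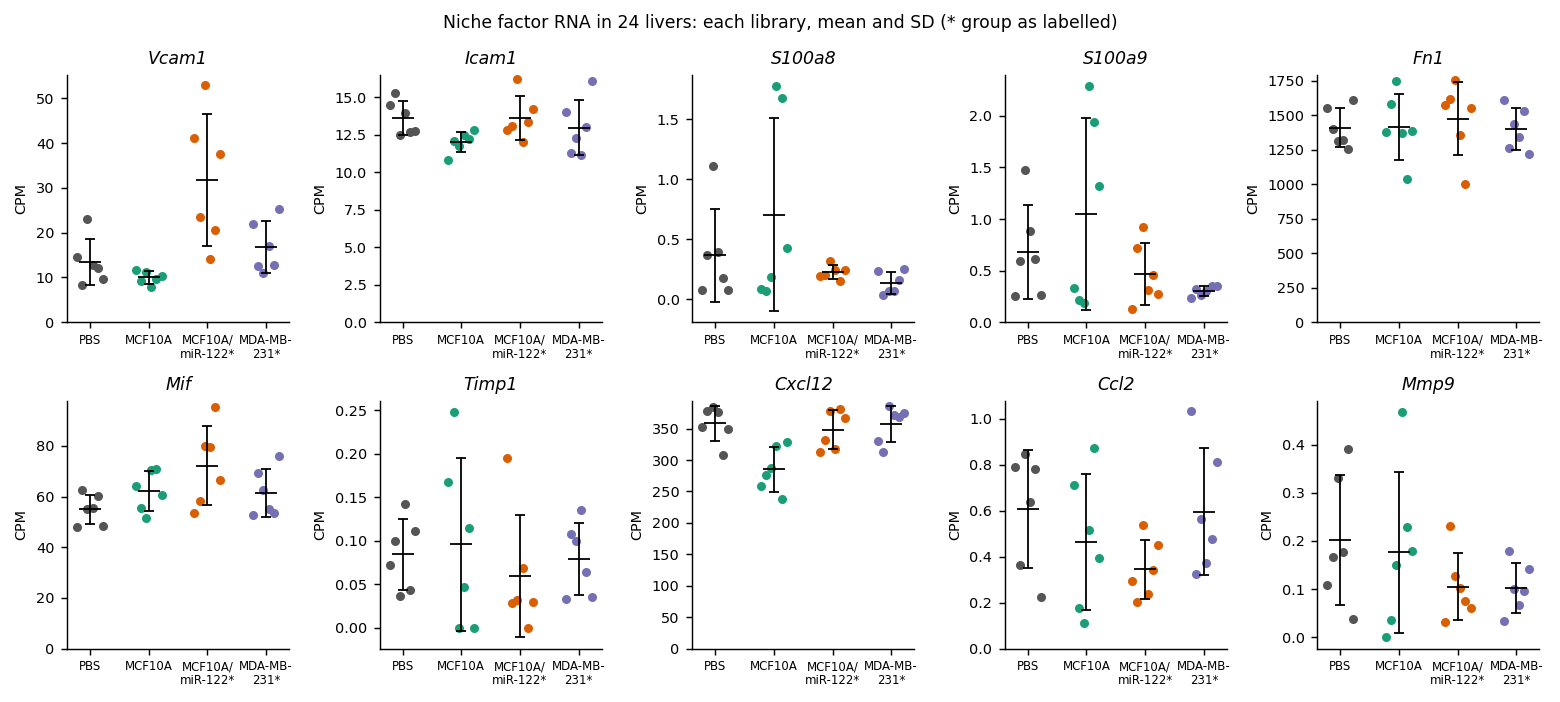
CPM of the 10 factors (vertical, 1 panel per gene, each with its own axis) in the 4 groups. Points are libraries, 6 per group, and bars give mean and SD. For Vcam1 the group labelled MCF10A/miR-122 reaches 53.1 CPM and does not overlap MCF10A EV, and for Cxcl12 the MCF10A EV libraries lie at 238 to 328 CPM.

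Markers of Kupffer cells and macrophages moved with Vcam1. The sum of 14 such markers was at 629, 543, 913, 438, 441 and 611 CPM in the group labelled MCF10A/miR-122, in the order used for Vcam1. It was 390 to 489 CPM with PBS, 398 to 442 CPM with MCF10A EVs and 363 to 514 CPM with EVs labelled MDA-MB-231. Ordered by either measure, the 6 libraries labelled MCF10A/miR-122 came in the same order. Within groups, Vcam1 and the sum had a Pearson r of 0.76 (Spearman rho 0.73) over 24 libraries, which share the total count of each library. For sums of the other marker lists r ran from -0.13 (hepatocyte) to 0.60 (neutrophil), with 0.58 for lymphocyte and 0.47 for stellate and fibroblast markers. In whole liver, more cells of a type and more RNA per cell cannot be told apart.

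Of the 14 markers, 8 rose in the group labelled MCF10A/miR-122 against PBS, with a median log2 fold change of 0.45 where all genes had 0.0010, beside 17.9% of all tested genes called in either direction. They included Vsig4, a complement receptor gene (0.62, adjusted p = 0.00307), and Marco, a scavenger receptor gene (0.97, adjusted p = 0.00911). Against MCF10A EV 9 rose (median 0.47, all genes -0.0039), beside 16.2% of all genes called. Within the set, 3 fell in the group labelled MDA-MB-231 against that labelled MCF10A/miR-122 (median -0.42, all genes 0.0017), beside 0.254% of all genes. These counts lean on replicate 3 of the group labelled MCF10A/miR-122: without it they were 3, 6 and 0. The count against PBS was 5 without PBS replicate 4 or 6. Within the set it was 0 without replicate 2 or 3 of the group labelled MDA-MB-231, and 1 without its replicate 5 or without replicate 1 or 6 of the other group. Vcam1 itself was at 3.24 to 6.56 CPM per 100 CPM of the markers in that group (median 5.26). The median was 2.76 with PBS (1.92 to 5.22), 2.43 with MCF10A EVs (1.97 to 2.70) and 3.52 with EVs labelled MDA-MB-231 (2.83 to 5.62). The part of macrophage content in the Vcam1 difference was not tested. Markers of the sinusoidal endothelium, which also bears this receptor, summed to 222 to 560 CPM in that group and 373 to 475 CPM with PBS, and 1 of 13 passed between them (Stab1, 0.33, adjusted p = 0.0411).

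**Figure D3:**
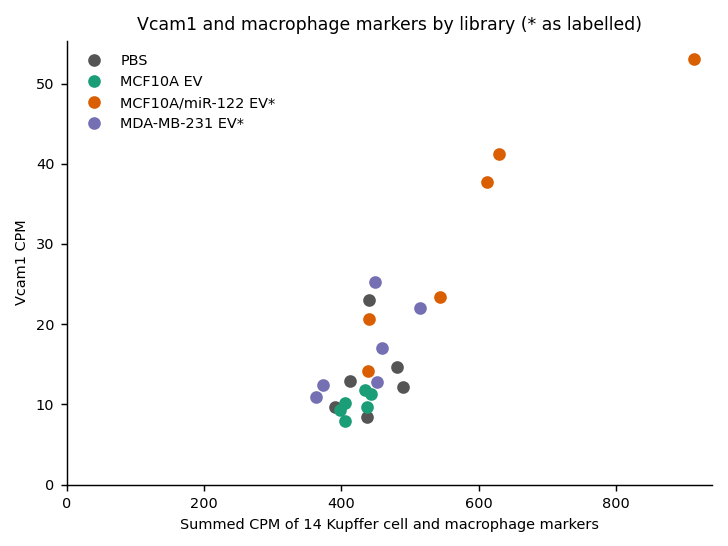
Vcam1 CPM (vertical) against the summed CPM of 14 Kupffer cell and macrophage markers (horizontal), with 1 point per library, 24 in all, coloured by group. Of the group labelled MCF10A/miR-122, 4 libraries lie to the right of the rest and reach 913 CPM of markers, while the other 2 lie among the other groups.

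Icam1, the adhesion receptor for the leukocyte integrin LFA-1, passed in none of the 7 comparisons. Its group means were 13.6 ± 1.13 CPM with PBS, 12.02 ± 0.688 with MCF10A EVs, 13.6 ± 1.47 in the group labelled MCF10A/miR-122 and 12.98 ± 1.86 in that labelled MDA-MB-231. All groups overlapped. The log2 fold change in the group labelled MCF10A/miR-122 against PBS was 0.00070, with a 95% interval of -0.18 to 0.18. Over all 24 libraries Icam1 stayed between 10.8 and 16.2 CPM. The within-group r of Vcam1 and Icam1 was 0.38 over 24 libraries.

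Cxcl12, the chemokine that retains CXCR4-bearing cells, was lower after MCF10A EVs than in any other group. Its level was 259, 276, 287, 322, 238 and 328 CPM with MCF10A EVs (285 ± 35.3) and 353, 379, 384, 377, 309 and 349 CPM with PBS (359 ± 28.3). All 6 MCF10A EV libraries were below the PBS median and 4 were below every PBS library. The log2 fold change was -0.33 (SE 0.08, adjusted p = 0.0496), which is close to the threshold. It was lost without the filter on low counts (adjusted p = 0.0553) and with only the groups compared (adjusted p = 0.11). Cxcl12 was the 1 member called of 8 tested in this within-set comparison, beside 1.07% of all genes. The call was lost when any of 12 single libraries was left out, with adjusted p up to 0.105. These were PBS replicates 1 to 4, MCF10A EV replicates 1 to 5 and replicates 4 to 6 of the group labelled MDA-MB-231, and the log2 fold change stayed between -0.38 and -0.30. Markers of stellate cells and fibroblasts, a source of this chemokine, summed to 260 to 472 CPM with MCF10A EVs and 226 to 434 CPM with PBS, with medians of 322 and 375 CPM. The median log2 fold change of these 14 markers was -0.21 (all genes 0.0077) and 0 of 14 passed. Their part in the Cxcl12 difference was not tested.

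Cxcl12 was at 313, 332, 378, 318, 382 and 366 CPM in the group labelled MCF10A/miR-122 (348 ± 30.8) and at 331, 312, 385, 372, 369 and 374 CPM in that labelled MDA-MB-231 (357 ± 28.7). Both overlapped PBS almost fully, with log2 fold changes of -0.04 (95% interval -0.21 to 0.13) and -0.01 (-0.18 to 0.17). Both were above MCF10A EV, by 0.29 (SE 0.08, adjusted p = 0.0184) and 0.33 (SE 0.08, adjusted p = 0.0161), with the MCF10A EV libraries shared by the comparisons. Fitted with only the groups compared, the first was lost (0.30, adjusted p = 0.0515) and the second held (0.33, adjusted p = 0.0301). Between themselves these 2 groups differed by 0.04 (95% interval -0.13 to 0.21).

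Ccl2, which draws monocytes through CCR2, had few counts, 3 to 31 per library. Its group means were 0.608 ± 0.257 CPM with PBS, 0.464 ± 0.298 with MCF10A EVs, 0.344 ± 0.129 in the group labelled MCF10A/miR-122 and 0.597 ± 0.275 in that labelled MDA-MB-231. All groups overlapped and none of the comparisons passed. The difference between the last 2 was the widest of its within-set values (log2 fold change 0.79, 95% interval -0.04 to 1.61, adjusted p = 0.646). Of 6 tested monocyte markers, 2 were called in the group labelled MCF10A/miR-122 against PBS, beside 17.9% of all genes. Ly6c2 (-0.87, adjusted p = 0.00137) and Cx3cr1 (-1.003, adjusted p = 0.0177) fell. The same 2 fell in the group labelled MDA-MB-231 against PBS (-0.56, adjusted p = 0.0369, and -1.03, adjusted p = 0.0226), beside 11.7% of all genes. The summed markers overlapped between all groups, at 29.8 to 73.6 CPM over the 24 libraries. Their median was 41.2 CPM with PBS, 43.1 with MCF10A EVs, 39.0 in the group labelled MCF10A/miR-122 and 50.5 in that labelled MDA-MB-231.

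Mif, a cytokine that binds CD74 and CXCR4, rose in the group labelled MCF10A/miR-122 against PBS. It was at 53.5 to 95.4 CPM there (median 73.1, mean 72.2 ± 15.7) and at 48.0 to 62.4 CPM with PBS (median 55.2, mean 54.9 ± 5.87). In 5 of 6 EV libraries it was above the PBS median, and 4 were above all PBS libraries. The log2 fold change was 0.40 (SE 0.12, adjusted p = 0.0281), and leaving out PBS replicate 1 or 6, or replicate 3 or 5 of the EV group, moved the adjusted p past the threshold, up to 0.0818. It was also lost with only the groups compared (adjusted p = 0.0582). MCF10A EV (62.1 ± 7.89 CPM) and the group labelled MDA-MB-231 (61.5 ± 9.46 CPM) did not pass against PBS. Vcam1 and Mif were the 2 members called of 8 in that comparison, beside 17.9% of all genes. Vcam1 and Cxcl12 were the 2 called against MCF10A EV, beside 16.2% of all genes. Within groups Mif and Fn1 had an r of -0.74 (rho -0.73) over 24 libraries, the most negative of any pair of members. Replicate 5 of the group labelled MCF10A/miR-122 had both the highest Mif (95.4 CPM) and the lowest Fn1 (998 CPM) of the 24 libraries. The reason for this inverse pattern was not tested.

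S100a8 and S100a9, whose proteins pair as calprotectin of neutrophils and monocytes, were barely detected. S100a8 had 2, 11, 30, 11, 4 and 2 counts with PBS, 2, 2, 5, 38, 44 and 12 with MCF10A EVs, 6, 7, 10, 7, 4 and 8 in the group labelled MCF10A/miR-122, and 7, 1, 2, 2, 5 and 7 in that labelled MDA-MB-231. S100a9 had 7, 18, 40, 25, 14 and 7 counts with PBS, 8, 6, 5, 49, 51 and 37 with MCF10A EVs, 4, 25, 29, 9, 12 and 9, and 7, 9, 8, 9, 11 and 10, in the same order. The high values of both genes sat in MCF10A EV replicates 4 and 5 and PBS replicate 3. MCF10A EV replicate 6 was high in S100a9 only, with 12 S100a8 counts beside 11 in PBS replicates 2 and 4. All groups overlapped. Within groups the pair had an r of 0.80 (rho 0.76) over 24 libraries. S100a9 and Mmp9 had 0.75 and S100a8 and Mmp9 0.64.

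Neither S100 gene passed in any comparison. The widest differences were those of the group labelled MDA-MB-231 against MCF10A EV, across the sets, where the log2 fold change was -2.31 for S100a8 (SE 0.72, adjusted p = 0.0505) and -1.75 for S100a9 (SE 0.57, adjusted p = 0.058). DESeq2 put both under the threshold (adjusted p = 0.0151 and 0.0199). Leaving out single libraries gave adjusted p of 0.027 to 0.166 for S100a8 and 0.0257 to 0.175 for S100a9. Cxcl12 was the 1 member called there, beside 7.68% of all genes. For MCF10A EV against PBS the values were 0.90 (95% interval -0.40 to 2.19) and 0.60 (-0.47 to 1.66). Neutrophil markers were also low: their sum over 15 genes was 4.02 to 10.5 CPM in all libraries, and 5 of the 15 were tested with none called in any comparison. They moved with the S100 pair within groups, with an r of 0.65 for S100a8 and 0.60 for S100a9 over 24 libraries. This was not particular to the pair: over the other members r ran from -0.32 for Timp1 to 0.62 for Ccl2, with 0.60 for Vcam1 and 0.52 for Mmp9. The sum was highest within its group in PBS replicate 3 (8.65 CPM) and in MCF10A EV replicates 4 and 5 (9.17 and 9.58 CPM), which are among the libraries high in S100a8 and S100a9. In MCF10A EV replicate 6, with 37 S100a9 counts, it was 7.08 CPM, and in replicate 3, with 5, it was 7.22 CPM. The largest sum of all, 10.5 CPM in replicate 3 of the group labelled MCF10A/miR-122, came with only 0.317 CPM of S100a8 and 0.920 CPM of S100a9. Picked from the 15 with their values seen, the granule genes Ngp, Elane and Mpo were at 0.847, 0.479 and 0.737 CPM in PBS replicate 3. In the other PBS libraries they were at 0 to 0.0710 CPM. The sum over all 15 was less far apart, at 8.65 CPM in that library and 4.02 to 6.71 CPM in the other PBS libraries. It includes these 3 genes, so it is not separate evidence on that library, and the sum without them was not taken. The part of neutrophil content in the S100 values was not tested.

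**Figure D4:**
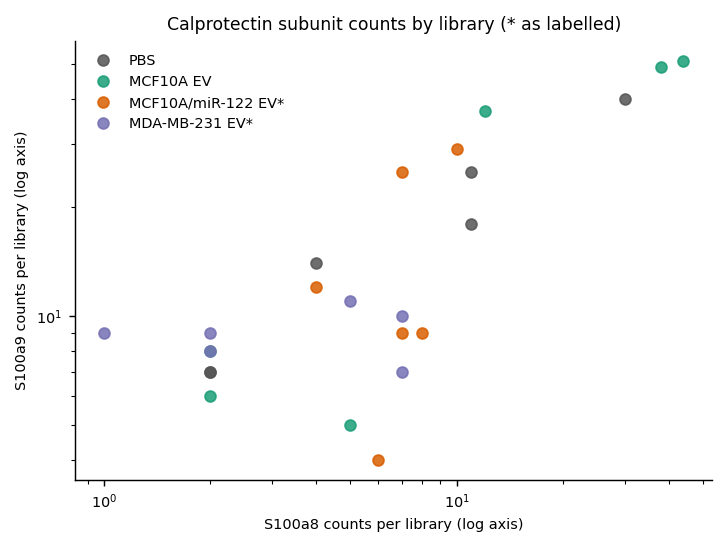
Counts of S100a8 (horizontal) and S100a9 (vertical) in each library, both on log axes, coloured by group. Libraries with identical counts overlap. The 4 libraries with the most S100a9, at 37 to 51 counts, are MCF10A EV replicates 4 to 6 and PBS replicate 3, and the libraries labelled MDA-MB-231 all lie at 11 S100a9 counts or fewer.

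Fn1, the gene of plasma and matrix fibronectin, was abundant, and its group means lay close together. Group means were 1409 ± 143, 1416 ± 239, 1475 ± 267 and 1401 ± 154 CPM for PBS, MCF10A EV, the group labelled MCF10A/miR-122 and that labelled MDA-MB-231. The log2 fold changes of all 7 comparisons lay between -0.07 and 0.07, and none passed. Against PBS the 95% interval was -0.24 to 0.26 for MCF10A EV and -0.19 to 0.32 for the group labelled MCF10A/miR-122, so larger changes than these are outside it.

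Timp1, an inhibitor of metalloproteinases, had 2, 3, 1, 4, 1 and 3 counts with PBS, 4, 7, 0, 1, 3 and 0 with MCF10A EVs, 6, 1, 1, 2, 0 and 1 in the group labelled MCF10A/miR-122, and 1, 3, 3, 4, 2 and 1 in that labelled MDA-MB-231. Mmp9, a gelatinase of leukocytes, had 3, 5, 9, 5, 9 and 1, then 0, 1, 4, 10, 6 and 5, then 1, 8, 4, 3, 2 and 2, and 1, 5, 3, 2, 3 and 4, in the same order. The summed counts per group were 14, 15, 11 and 14 for Timp1 and 32, 26, 20 and 18 for Mmp9. A count of 0 allows up to 3 counts, 0.0866 to 0.140 CPM across the libraries, and covers counting error only. No difference was detectable at this depth, and fitted without the filter no comparison of either gene passed.

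**Figure D5:**
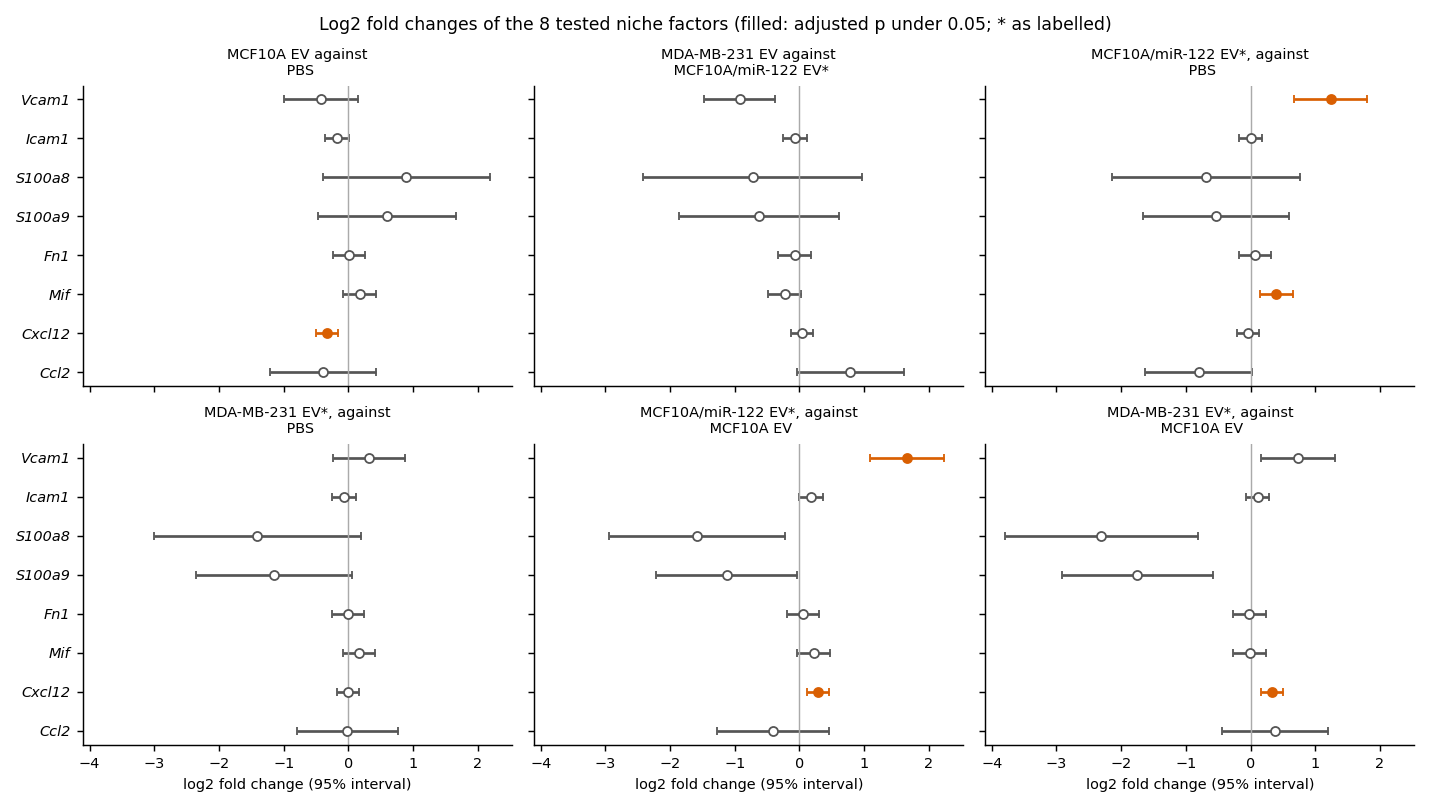
Log2 fold changes of the 8 tested factors (horizontal, with 95% intervals) in 6 comparisons, 1 panel each. Filled points passed an adjusted p of 0.05: Vcam1 and Mif in the group labelled MCF10A/miR-122 against PBS, Vcam1 and Cxcl12 in it against MCF10A EV, and Cxcl12 in both other MCF10A EV panels. S100a8, S100a9 and Ccl2 have the widest intervals.

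No member passed in 3 of the 7 comparisons. For the group labelled MDA-MB-231 against that labelled MCF10A/miR-122, 0.254% of all genes passed. Among the members Vcam1 alone had an unadjusted p under 0.05, beside 1128 of the 13773 tested genes. DESeq2 and limma-voom also called 0 members. For MDA-MB-231 EV, as labelled, against PBS, 11.7% of all genes passed. An unadjusted p under 0.05 was found for 0 members, beside 3711 of all tested genes, and both tools called 0. For all EV groups against PBS, 12.6% of all genes passed. Mif alone had an unadjusted p under 0.05 (log2 fold change 0.25, adjusted p = 0.112), beside 3909 of all tested genes, and both tools called 0.

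Genes that work with the members were taken as lists, and the shares of all genes called are repeated here: 1.07% for MCF10A EV against PBS, 17.9% and 11.7% for the groups labelled MCF10A/miR-122 and MDA-MB-231 against PBS, 16.2% and 7.68% for these against MCF10A EV, and 0.254% between these groups themselves. Of 24 tested receptors and partners, Sdc4, a heparan sulfate proteoglycan that binds fibronectin, was the 1 called in MCF10A EV against PBS (410 and 299 CPM, log2 fold change 0.45, adjusted p = 0.0397). It rose against PBS in the group labelled MCF10A/miR-122 (0.55, adjusted p = 0.00131), where Darc, an atypical chemokine receptor, fell (-0.57, adjusted p = 0.00502), 2 of 24 in all. In the group labelled MDA-MB-231 against PBS 3 of 24 were called. Sdc4 (0.50, adjusted p = 0.00444) and Cd44, a receptor of hyaluronan and a partner of CD74 in Mif signaling (0.80, adjusted p = 0.0199), rose, and Itga5, a subunit of the fibronectin receptor, fell (-0.43, adjusted p = 0.0433). Against MCF10A EV 3 of 24 were called in the group labelled MCF10A/miR-122. Tlr4, a receptor reported for S100a8 (0.69, adjusted p = 0.0295), and the integrin gene Itgb1 (0.24, adjusted p = 0.0381) rose, and Ccbp2, a scavenging receptor of Ccl2, fell (-0.71, adjusted p = 0.0117).

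Of 17 tested other chemokines, Cxcl13, which attracts B cells, was also highest in the group labelled MCF10A/miR-122. Its mean was 3.81 CPM there, 1.06 with PBS, 0.842 with MCF10A EVs and 0.691 in the group labelled MDA-MB-231. The within-set difference of the last from the first passed (log2 fold change -2.46, adjusted p = 4.05e-05), and it was the 1 chemokine called there. In the group labelled MCF10A/miR-122 against PBS 3 of 17 were called, 17.6% beside 17.9% of all genes. Cxcl13 rose (1.82, adjusted p = 9.91e-05), and Cxcl10 and Cxcl11, interferon-induced ligands of CXCR3, fell (-1.31, adjusted p = 0.00259, and -1.34, adjusted p = 0.00147). The median of the list was 0.08. In the group labelled MDA-MB-231 against PBS Cxcl14 (1.74, adjusted p = 0.0117) and the platelet chemokine gene Pf4 (1.18, adjusted p = 0.0158) rose and Cxcl11 fell (-0.92, adjusted p = 0.0256). Against MCF10A EV 4 of 17 were called in the group labelled MCF10A/miR-122: Cxcl13 (2.17) and Cxcl9 (1.13, adjusted p = 0.00304) higher, Cxcl11 (-1.07) and Ccl6 (-0.85) lower.

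Of 20 tested NF-kappaB genes, 3 were called in the group labelled MCF10A/miR-122 against PBS, 15% beside 17.9% of all genes. Nfkbia, the feedback inhibitor induced by NF-kappaB, rose (0.73, adjusted p = 7.50e-04), while Nfkbie, another inhibitor (-0.38, adjusted p = 0.0109), and the subunit gene Nfkb1 (-0.30, adjusted p = 0.0161) fell, and the median of the list was -0.08. Nfkbia was the 1 called in the group labelled MDA-MB-231 against PBS (0.72, adjusted p = 0.00136). It was also the 1 called in each of these groups against MCF10A EV (0.57 and 0.56, adjusted p = 0.0055 and 0.0122). Of 22 tested niche matrix genes, 3 were called in the group labelled MCF10A/miR-122 against PBS, 13.6% beside 17.9% of all genes. Ctgf, a matricellular protein gene, rose (1.90, adjusted p = 6.93e-04), while the laminin gene Lama4 (-0.75, adjusted p = 0.0344) and the lysyl oxidase gene Loxl4 (-0.74, adjusted p = 0.0354) fell, and the median was -0.22. Ctgf was the 1 called in the group labelled MDA-MB-231 against PBS (1.56, adjusted p = 0.00537).

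Of 16 tested adhesion genes, Cd47, the ligand of SIRP alpha, was the 1 called in each of the 4 comparisons of single groups across the sets, at 0.17 to 0.23, and 6.25% was below the share of all genes in each. Of 12 tested metalloproteinases and inhibitors, Mmp13 (-0.84, adjusted p = 0.0339) and Mmp11 (-0.91, adjusted p = 0.044) fell in the group labelled MCF10A/miR-122 against PBS, and Timp3 rose in it against MCF10A EV (0.68, adjusted p = 0.0435). Of 6 tested S100 genes, S100a10 was the 1 called, in that last comparison (-0.75, adjusted p = 0.00336). In the last 6 lists no gene passed in MCF10A EV against PBS, and neither did any gene of the 9 marker lists. For the group labelled MCF10A/miR-122 against PBS, 3 of 11 hepatocyte, 1 of 8 cholangiocyte, 1 of 14 stellate, 0 of 5 erythroid and 0 of 1 tested lymphocyte markers passed, beside 17.9% of all genes.

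The genes whose levels varied most like each member within groups, over 24 libraries, were sought among tested genes whose mean log2 CPM reached 1. For Vcam1 these were Axl, a receptor tyrosine kinase gene (r = 0.93), Cd68, a macrophage marker (0.89), and Hmox1, heme oxygenase 1 (0.86). Axl was at 22.2 ± 4.05 CPM with PBS, 15.3 ± 1.07 with MCF10A EVs, 27.5 ± 9.83 in the group labelled MCF10A/miR-122 and 18.4 ± 3.58 in that labelled MDA-MB-231. For Mif they were Nme2, Rps25 and Rpl28 (each 0.95), the last 2 of which encode ribosomal proteins, and for Fn1 Vps33a (0.93), Apob (0.92) and Ptpn11 (0.91). For Cxcl12 they were Acot4 (0.80), Por (0.69) and Phc1 (0.69).

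Ccl2 varied most like Cyp2a22 (0.80) and the interferon-induced genes Irf7 (0.79) and Usp18 (0.77). Icam1 did so with Hpse, the heparanase gene (0.77), Ramp1 (0.76) and Rassf1 (0.72). For S100a8 they were Actg1 (0.69), Cenpo (0.65) and Skp2 (0.64), and for S100a9 Idua (0.71), Jak3 (0.68) and Sh3bgrl3 (0.67). For Timp1 they were Mras (0.67), Hdac1 (0.67) and Fig4 (0.66), and for Mmp9 Rhbdf2 (0.76), Ddhd1 (0.71) and Bcl3 (0.70). Libraries share their depth in all of these, and the highest of many values is reported for each member. Timp1 (0 to 7 counts per library) and Mmp9 (0 to 10) did not pass the filter on low counts, so counting error weighs on their values. S100a8, S100a9 and Ccl2 also had few counts.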

How the data were processed

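The deposited table holds raw whole-number counts of reads by gene symbol. Tools named in the submitters' processing notes are bcl2fastq 2.18.0.12 and TopHat2, with build mm9, while counting tool, annotation and strand setting are not given. The main test was the quasi-likelihood test of edgeR 4.0.16 (R 4.3.3), two-sided, with TMM scaling, filterByExpr by group, and 1 mean per group over all 24 libraries. Benjamini-Hochberg adjustment ran over 13773 genes, with a threshold of 0.05. Left out were 27 rows that share 11 symbols (0.0744% of counts). CPM use TMM-scaled totals (21.3 to 33.7 M counts), and genes varied between replicates by 16.8% (common biological coefficient). Each library was taken as 1 mouse, which the labels do not say outright: if not, p-values cover technical spread only. Alternatives used DESeq2 1.42.0 and limma-voom 3.58.1.

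The members, 7 gene lists and 9 marker lists were chosen with earlier results of these data known. All members are named. By rule, list and marker genes past the threshold may be named, at most the 4 smallest p per list and comparison, and a part of them is, picked with their values seen. The neutrophil granule genes Ngp, Elane and Mpo are named outside this rule, picked with their values seen. Also named are the 3 genes most alike to each member, predicted loci left out. Alikeness is the r of log2 CPM after subtracting group means. Transcript lengths and shared 32-mers come from GENCODE M21 (GRCm38), used for names and lengths only, and promoters from RefSeq.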

Additional observations from a re-analysis of the deposited data

Results flagged for a closer look

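In 2 of the 40 sets of 6 libraries (10 genes in 4 groups), 1 library lay far from the other 5. By Dixon's gap test, which sets the gap to the nearest library against the range, chance gives this in about 1 of 20 sets. That rate assumes normally distributed values, and it may not hold for low counts such as these. S100a8 in PBS replicate 3 was at 1.10 CPM (30 counts), and the other PBS libraries were at 0.0720 to 0.390 CPM. Timp1 in replicate 1 of the group labelled MCF10A/miR-122 was at 0.195 CPM (6 counts), and the other libraries of that group were at 0 to 0.0685 CPM.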

How the results depend on the processing

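With RLE size factors, limma-voom and a filter at a mean CPM of 1 (which left 5 members tested, without S100a8, S100a9 and Ccl2), the number of members called changed in none of the 7 comparisons. DESeq2 called 3 members for MDA-MB-231 EV, as labelled, against MCF10A EV, adding S100a8 and S100a9. Without the filter 0 were called for MCF10A EV against PBS. Fitted with only the groups compared, the counts were 0 for MCF10A EV against PBS (Cxcl12 adjusted p = 0.11), 1 for MCF10A/miR-122 EV, as labelled, against PBS (Mif lost) and 1 against MCF10A EV (Cxcl12 lost), and 2 for MDA-MB-231 EV, as labelled, against MCF10A EV (Vcam1 added). The cause of these changes was not tested. Leaving out single libraries gave 0 to 1 for MCF10A EV against PBS, 0 to 1 for MDA-MB-231 EV against MCF10A/miR-122 EV, as labelled, 1 to 2 for MCF10A/miR-122 EV, as labelled, against PBS, and 1 to 3 for MDA-MB-231 EV, as labelled, against MCF10A EV. S100a8 then ranged from -0.63 to 0.32 (log2) for all EV groups against PBS and from -0.91 to 0.036 for MCF10A/miR-122 EV, as labelled, against PBS, positive without PBS replicate 3. The Kupffer cell and macrophage counts, an alternative chosen after seeing the data, ranged from 3 to 12 against PBS, 6 to 12 against MCF10A EV and 0 to 4 within the set.

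With the identities of the library names, which exchange the last 2 groups, the counts against PBS were 0 for MCF10A/miR-122 EV and 2 for MDA-MB-231 EV, and against MCF10A EV 1 and 2. By construction the comparison of these groups turned sign: Vcam1 0.92, Icam1 0.068, S100a8 0.72, S100a9 0.62, Fn1 0.075, Mif 0.23 and Ccl2 -0.79. Against MCF10A EV, Mif became -0.013 and Ccl2 0.38 for MCF10A/miR-122 EV, and 0.22 and -0.41 for MDA-MB-231 EV.

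Replicate numbers did not pair the samples: correlations of same-numbered libraries ran from -0.43 to 0.37, and 7 of 24 libraries were closest to their own number. With the replicate block, 2 members were called for MCF10A/miR-122 EV, as labelled, against PBS, and no count or member's call changed. Depth limits S100a8, S100a9, Ccl2, Timp1 and Mmp9.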
